A study of Mus musculus with 10 samples.

Results

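The nuclear genes of respiratory complex I were taken as the protein-coding genes whose symbols start with Ndufa, Ndufb, Ndufc, Ndufs or Ndufv, which takes in the assembly factors named Ndufaf. They numbered 46 of 22046 protein-coding genes and of 54532 genes in the deposited table. By role they comprised 7 core subunits, 10 accessory subunits of the matrix arm, 19 accessory subunits of the membrane arm and 8 assembly factors. The other 2, Ndufa4 and Ndufa4l2, carry the family name, but Ndufa4 is now placed in cytochrome c oxidase (complex IV) and Ndufa4l2 is its paralog. Ndufb1-ps (125 to 208 counts per library) is listed in the table as a noncoding transcript and was therefore not a member, and the processed pseudogenes Ndufa11b, Ndufab1-ps, Ndufb4c and Ndufs6b, with at most 89 counts, were not either.

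Complex I takes electrons from NADH in the mitochondrial matrix, passes them along a flavin and a chain of iron-sulfur clusters to ubiquinone, and pumps protons across the inner membrane. Its core subunits come from both nuclear and mitochondrial genes, and accessory subunits and assembly factors, all nuclear, surround or build this core. Succinate dehydrogenase (complex II) reduces the same ubiquinone pool, and tubular cells of the kidney, above all those of the proximal tubule, are rich in mitochondria.

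Kidneys were taken from male C57BL/6 mice (genotype WT) aged 8 weeks when the ureter on that side was ligated (unilateral ureteral obstruction, UUO), 14 days earlier. The DMM group received dimethyl malonate, an inhibitor of succinate dehydrogenase, at 40 mg/kg into the peritoneum on alternate days, and the control group received PBS. All kidneys of both groups were obstructed, so that no healthy kidney entered the comparison. RNA of whole kidney was sequenced in 5 control and 5 DMM libraries, and the comparison addressed what the inhibitor does to gene expression in the obstructed kidney. The number of reads counted on genes was between 16457495 and 18078777 in control libraries (median 17825223) and between 15722527 and 19475833 in DMM libraries (median 16794390).

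DMM replicate 4 stood apart from the other 9 libraries in its RNA. It had a count on 20029 genes, against 22898 to 24083 in the others. Genes of the mitochondrial genome took 5.62% of its counts, against 1.97% to 4.39%, and the mitochondrial ribosomal RNAs 0.392%, against 0.0414% to 0.0743%. The mean GC content of its nuclear transcripts, weighted by count, was 48.3%, against 49.8% to 50.0%. Fold changes of the gene lists are therefore given with and without it. Control replicate 3 and DMM replicate 1 did not enter the group means that the authors deposited (weights of 0), so that these means are made of 8 libraries, whereas the methods of the study state 5 replicates. That set of 8 libraries, 4 per group, was read from the deposited means and is given beside all 10. No reason for leaving them out was given in the sources used here.

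The nuclear complex I genes did not pass the test in either direction when all 10 libraries were compared. Genes were tested by edgeR's quasi-likelihood method, and those with an adjusted p (Benjamini-Hochberg) below 0.05 that changed more than 1.5-fold were called. Of the 46 members, all of which passed the filter on low counts, 0 were called higher (0% of 16505 genes tested were) and 0 lower (0%). With the same fold threshold and an unadjusted p below 0.05, 0 members were higher, against 315 genes in all (1.91%), and 0 lower, against 678 (4.11%). DESeq2 called 0 members, with 14 genes higher (0.0882%) and 36 lower (0.227%) among the 15866 given an adjusted p by its Benjamini-Hochberg step. In edgeR, at an unadjusted p below 0.05 and any fold change, 1 member was higher (4.4% of all genes were) and 0 lower (6.49%). The median log2 fold change of DMM over control was 0.09 over the members and 0.02 over all genes tested. It was above 0 for 42 members and below 0 for 4 with TMM scaling, against 8715 and 7790 of all genes. Scaling by library size alone shifted all genes downward, to a median of -0.06 (6619 above 0 and 9886 below), and the members to 0.02 (26 above 0 and 20 below). In 46 of 46 members the values of the groups overlapped, so that 0 had every DMM library above every control library (0.794% of all genes did) and 0 had every one below (1.16%). In whole kidney, fewer cells of a type and less RNA per cell cannot be told apart.

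The libraries differed within each group. The mean log2 CPM of the 46 genes (CPM, counts scaled by TMM to a common library size), set relative to the control mean, was -0.04, 0.00, 0.31, -0.16 and -0.11 in control replicates 1 to 5. In DMM replicates 1 to 5 it was -0.13, 0.24, 0.36, -0.65 and 0.45. DMM replicates 2, 3 and 5 were high, DMM replicate 1 lay among the controls, DMM replicate 4 was below every control, and control replicate 3 was level with the high DMM libraries. The SD was 0.18 among control and 0.45 among DMM libraries (n = 5 each), against a difference between the group means of 0.05. Without DMM replicate 4 the difference was 0.23 and the SD of the remaining DMM libraries 0.25 (n = 4). Gene by gene, control replicate 3 was the highest control in 42 of 46 members (26.9% of all genes), and control replicate 4 the lowest in 35 (26.3%). DMM replicate 4 was the lowest DMM library in 37 members (40.1% of all genes), and DMM replicate 5 the highest in 33 (15.8%).

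Markers of tubule, immune and other cells also differed between libraries, though not always in the same ones as the complex I genes. Of the 10 proximal tubule markers, all 10 were tested and none was at 0, with Lrp2, the endocytic receptor megalin, the most abundant (219.6 to 2504 CPM). Their summed level was 2240.2, 2302, 5431, 985 and 1812 CPM in control replicates 1 to 5. In DMM replicates 1 to 5 the sum was 1643, 4492, 5313, 4761 and 6467 CPM. Control replicate 3 thus lay within the range of DMM replicates 2 to 5, and DMM replicate 1 lay among the remaining controls. DMM replicate 4 departed from the complex I pattern. In mean log2 CPM relative to the control mean it was at 0.71 for these markers and at -0.65 for the complex I genes. The 7 macrophage markers, all tested, none at 0 and led by C1qb, a complement component, ran the other way. They summed to 1529, 1397, 1210.2, 1443 and 1646 CPM in the controls in the same order and to 1319.9, 919, 792, 602 and 809 CPM in the DMM libraries. DMM replicate 4 had the lowest macrophage sum and, at 788 CPM, the highest sum of the 5 red blood cell markers, which was 136 to 593 CPM elsewhere. The part of these cell types in the complex I values was not tested.

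Marker lists of the remaining cell types differed in direction and in spread. The mean log2 CPM in DMM libraries relative to the control mean is given ± SD (n = 5), with the SD of the control libraries in parentheses. It was 0.46 ± 0.56 (0.50) for the thick ascending limb, 0.59 ± 0.43 (0.61) for the distal convoluted tubule and 0.43 ± 0.29 (0.35) for the collecting duct. For the proximal tubule it was 0.94 ± 0.86 (1.08), so that the SD among controls was larger than the shift. Macrophage markers were at -0.76 ± 0.46 (0.15), T cell markers at -1.15 ± 0.65 (0.33), red blood cell markers at 1.21 ± 0.95 (0.24) and fibroblast markers at -0.52 ± 0.61 (0.47). Pericyte, endothelial and podocyte markers were at 0.13, 0.03 and 0.02, and without DMM replicate 4 at 0.07, 0.005 and -0.02. Without DMM replicate 4 the means were 0.997 for the proximal tubule, 0.61 for the thick ascending limb, 0.51 for the distal convoluted tubule, 0.51 for the collecting duct, -0.60 for macrophages, -1.02 for T cells, 0.88 for red blood cells and -0.56 for fibroblasts. Of the 5 adipocyte markers, 0 passed the filter on low counts, and their sum was highest in control replicate 4, at 27.2 CPM.

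The steady level of the members was compared per length, as FPKM (the deposited values, scaled for gene length and library size). The mean over all 10 libraries was lowest for Ndufb2, at 1.67 FPKM, and the median of the members was 31.1 FPKM. Assembly factors were the lowest group, with a median of 6.73 FPKM and a range of 3.25 to 12.0 FPKM. Core subunits had a median of 38.4 FPKM, accessory subunits of the matrix arm 29.9 FPKM and those of the membrane arm 36.0 FPKM. For 42 of the 46 members these lengths are the union of all exons in GENCODE M21. For Ndufs1 that union was 8086 bp, against 2661 bp for the longest transcript, and for Ndufab1 6883 bp against 3479 bp, so that their FPKM is understated relative to that transcript. The low FPKM of Ndufb2 was likewise set over 5628 bp.

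Of the 7 core nuclear subunits, 0 were called over all 10 libraries, and their median log2 fold change was 0.21. Ndufv1, the subunit that binds NADH and the flavin, was at 112, 117, 154, 96.0 and 109 CPM in control replicates 1 to 5 and at 117, 146, 180.4, 81.8 and 183 CPM in DMM replicates 1 to 5. Its partner Ndufv2, which carries an iron-sulfur cluster, was at 74.7, 76.9, 103, 63.0 and 66.8 CPM in controls and at 69.6, 87.2, 95.4, 92.9 and 99.9 CPM in DMM libraries. Ndufs1 (GRCm38 chromosome 1, 63143596 to 63176833), the largest subunit and the carrier of several clusters, was at 88.7, 96.0, 143, 72.2 and 82.1 CPM in controls and at 80.1, 127, 138, 122 and 149.6 CPM in DMM libraries. In all 3 genes control replicate 3 was the highest control and DMM replicate 5 the highest library of the DMM group, and the groups overlapped. For Ndufv1 DMM replicate 4 was the lowest of all, yet for Ndufs1 and Ndufv2 it lay among the other DMM libraries. The mean of Ndufs1 was 96.5 ± 27.6 CPM in control and 123 ± 26.4 CPM in DMM kidneys (SD, n = 5), for a log2 fold change of 0.35 with a standard error of 0.21 and an adjusted p of 0.536 (edgeR quasi-likelihood test, Benjamini-Hochberg). Ndufs1 shares 498 exon bases with the genes Ino80dos and Eef1b2 on the opposite strand, and whether counting used strand is not given in the sources used here.

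Other core subunits belong to the connecting part that leads electrons to ubiquinone. Ndufs7, which lies at the ubiquinone site, was at 59.7, 56.9, 77.3, 49.8 and 53.0 CPM in control replicates 1 to 5 and at 55.2, 67.7, 77.7, 23.7 and 86.2 CPM in DMM replicates 1 to 5. It was high in control replicate 3 and in DMM replicates 2, 3 and 5, and its value in DMM replicate 4 was below that of every other library. Ndufs3, a scaffold of the early assembly intermediate, was at 62.8, 60.03, 78.1, 57.7 and 57.9 CPM in controls and at 52.6, 75.6, 86.1, 52.3 and 88.7 CPM in DMM libraries. Ndufs8, which carries iron-sulfur clusters, was at 59.8, 61.1, 69.7, 50.2 and 52.3 CPM in controls and at 51.8, 69.8, 76.4, 47.5 and 79.4 CPM in DMM libraries. DMM replicates 1 and 4 were the lowest DMM libraries for both, at or below the level of most controls. Log2 fold changes over all 10 libraries were 0.17 for Ndufs3, 0.07 for Ndufs7, 0.15 for Ndufs8, 0.27 for Ndufv1 and 0.21 for Ndufv2, with standard errors of 0.15 to 0.28. Without DMM replicate 4 they were 0.26, 0.27, 0.24, 0.41 and 0.19 in the same order. Over all 10 libraries the value for Ndufs7 was below 0 with limma on log2(FPKM + 0.1), at -0.04, and with the replicate number as a block, at -0.04.

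Among the 10 accessory subunits of the matrix arm, 0 were called, with a median log2 fold change of 0.07. The highest was Ndufa9, which sits beside the ubiquinone channel, at 76.6, 76.0, 100.02, 69.4 and 69.5 CPM in control replicates 1 to 5 and at 75.4, 100.1, 100.9, 88.7 and 115 CPM in DMM replicates 1 to 5. Control replicate 3 reached the level of DMM replicates 2 and 3, and DMM replicate 1 that of the other controls. Its log2 fold change was 0.29 with a standard error of 0.14 and an adjusted p of 0.48 (edgeR quasi-likelihood test, Benjamini-Hochberg). Ndufab1, the mitochondrial acyl carrier protein, which also serves fatty acid and lipoic acid synthesis, was at 31.8, 29.9, 43.9, 28.9 and 28.1 CPM in controls and at 25.3, 37.1, 40.1, 22.5 and 45.7 CPM in DMM libraries. Its groups overlapped throughout, with means of 32.5 ± 6.52 CPM in control and 34.1 ± 9.89 CPM in DMM kidneys (SD, n = 5).

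The lowest of this arm was Ndufa12 (GRCm38 chromosome 10, 94198720 to 94221443), a small subunit where the NADH-binding part meets the rest of the arm. It was at 8.84, 11.4, 29.7, 32.6 and 9.47 CPM in control replicates 1 to 5 and at 9.13, 14.1, 14.8, 18.3 and 15.5 CPM in DMM replicates 1 to 5. Control replicates 3 and 4 lay far above all other libraries of either group, and the remaining controls were at or below most DMM libraries. The mean of control replicates 3 and 4 was 2.46 times that of the other 8 libraries. By the log2 distance from the lower of that pair to the highest other library, 0.70, it ranked 1 of 16505 genes tested, of which 131 had both libraries above the rest. This count was made after the values had been seen. The log2 fold change of Ndufa12 was -0.36 (standard error 0.39) over all 10 libraries and 0.01 over the 8 without control replicate 3 and DMM replicate 1.

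The 19 accessory subunits of the membrane arm had a median log2 fold change of 0.06, and 0 were called. Their range was -0.06 for Ndufc2 to 0.25 for Ndufb2. Ndufb2 was at 7.68, 8.89, 11.1, 6.65 and 8.82 CPM in control replicates 1 to 5 and at 8.09, 12.4, 9.29, 10.5 and 10.9 CPM in DMM replicates 1 to 5. Ndufb5 was at 47.9, 43.3, 58.3, 40.7 and 42.1 CPM in controls and at 41.8, 55.6, 63.5, 49.0 and 63.3 CPM in DMM libraries. Ndufc2 was at 66.7, 63.8, 76.9, 55.8 and 54.6 CPM in controls and at 58.1, 68.7, 71.5, 27.9 and 79.3 CPM in DMM libraries. DMM replicate 4 was far below all other libraries for Ndufc2, but within the range of both groups for Ndufb2 and Ndufb5. Ndufb2 shares exon bases with Braf on the opposite strand, and Ndufb5 with Mrpl47.

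Of the 8 assembly factors, which are not part of the finished enzyme, 0 were called over all 10 libraries, and their median log2 fold change was 0.10. Ndufaf4 (GRCm38 chromosome 4, 24898083 to 24905001), which acts with Ndufaf3 in building the ubiquinone-binding part, was at 21.6, 19.3, 23.2, 19.2 and 19.1 CPM in control replicates 1 to 5 and at 20.0, 25.02, 25.2, 42.0 and 28.3 CPM in DMM replicates 1 to 5. The highest library was DMM replicate 4, and DMM replicate 1 lay among the controls. This was the 1 member past an unadjusted p of 0.05, with means of 20.4 ± 1.84 CPM in control and 28.1 ± 8.33 CPM in DMM kidneys (SD, n = 5). Its log2 fold change was 0.46 with a standard error of 0.18 and an adjusted p of 0.413 (edgeR quasi-likelihood test, Benjamini-Hochberg), and 0.27 without DMM replicate 4. Ndufaf6, needed early in assembly, was at 7.997, 8.83, 9.89, 5.75 and 7.65 CPM in controls and at 6.36, 11.97, 10.4, 8.94 and 14.6 CPM in DMM libraries. Ndufaf5, which hydroxylates an arginine of Ndufs7, was at 8.10, 9.53, 11.0, 8.41 and 8.88 CPM in controls and at 8.09, 8.45, 10.1, 6.16 and 11.0 CPM in DMM libraries. Ndufaf6 was highest in DMM replicate 5 and lowest in control replicate 4, and Ndufaf5 had the lowest log2 fold change of the assembly factors, -0.07, with groups that overlapped.

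The genes that carry only the family name differed from each other. Ndufa4 was at 106, 110.0, 131, 87.0 and 97.5 CPM in control replicates 1 to 5 and at 91.8, 137, 151, 73.3 and 167 CPM in DMM replicates 1 to 5. Ndufa4l2, known as a target of the hypoxia-inducible factor, was at 10.3, 19.2, 11.2, 17.4 and 11.1 CPM in controls and at 13.5, 10.1, 10.9, 5.56 and 11.4 CPM in DMM libraries. Ndufa4 was high in DMM replicates 2, 3 and 5 and low in DMM replicate 4, whereas Ndufa4l2 was highest in control replicates 2 and 4 and lowest in DMM replicate 4. The log2 fold change was 0.22 (standard error 0.22) for Ndufa4 and -0.43 (standard error 0.26) for Ndufa4l2, the lowest of all 46 members. Without DMM replicate 4 it was 0.37 for Ndufa4 and -0.27 for Ndufa4l2, and Ndufa12, at -0.46, was then the lowest. Over the 8 libraries it was -0.61 for Ndufa4l2, with an adjusted p of 0.258 (edgeR quasi-likelihood test, Benjamini-Hochberg).

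How low the members were in DMM replicate 4 differed between those with short and those with longer transcripts. Length here is that of the longest annotated transcript, and which transcript was expressed was not examined. The log2 CPM of this library minus the mean of the other DMM libraries had a median of -0.87 over the 46 members and -0.05 over 16491 genes with a known length. For the 19 members whose longest transcript was shorter than 1000 bp the median was -1.54, and it ranged from -2.03 for the assembly factor Ndufaf8 to -0.77 for Ndufa5. For the 16 members from 1000 to under 2000 bp it was -0.52, and for the 11 of 2000 bp or longer -0.63, so that it did not rise further with length. The same medians over all genes were -0.71, -0.67 and 0.13. Across the 46 genes of this library, which are not independent replicates, the difference had a Pearson r of 0.64 with log2 length and -0.42 with GC content. Over all genes these were 0.40 and -0.46. Ndufaf4, at 0.78 the member highest in DMM replicate 4, has a transcript of 3632 bp with 39.5% GC. When offsets for GC content and length were added for each library, the members' median log2 fold change was 0.16 over 10 libraries, with 0 called (0% of all genes).

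**Figure D1:**
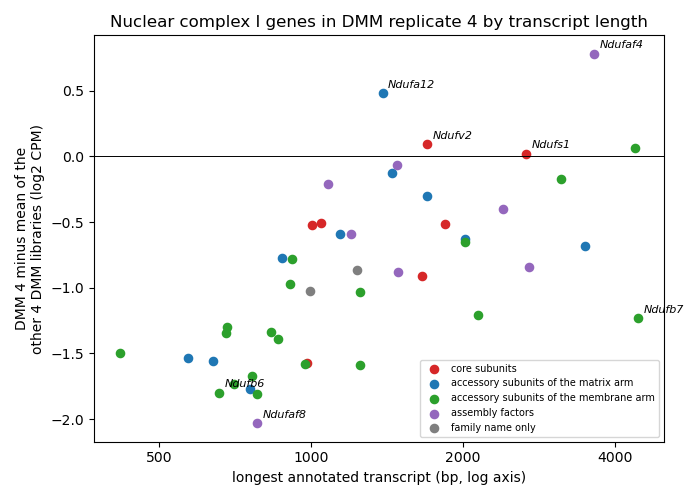
Log2 CPM of DMM replicate 4 minus the mean of the other DMM libraries (vertical axis) for each of the 46 genes, against the length of the longest annotated transcript in bp (horizontal log axis), coloured by role. The median is -1.54 for the 19 members shorter than 1000 bp and -0.63 for the 11 of 2000 bp or longer.

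Without DMM replicate 4, 0 members were called higher (0% of 16707 genes tested) and 0 lower (0%). The log2 fold change was above 0 for 44 members and below 0 for 2, Ndufa12 and Ndufa4l2, with a median of 0.26, against 0.00 over all genes, and 6 members were higher at an unadjusted p under 0.05 (7.35% of all genes). By role, the median was 0.27 for core subunits, 0.23 for accessory subunits of the matrix arm, 0.26 for those of the membrane arm and 0.23 for assembly factors.

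Over the 8 libraries of the authors' deposited means, Ndufs1 was the 1 member called higher, against 2.73% of 16550 genes, and 0 were called lower (3.56%). Its log2 fold change was 0.66 with a standard error of 0.12 and an adjusted p of 0.0162 (edgeR quasi-likelihood test, Benjamini-Hochberg). Each of these 4 DMM libraries was above each of the 4 controls, but how many of all genes did the same in this set was not counted. The libraries left out were the highest control for Ndufs1 (143 CPM) and the lowest DMM library (80.1 CPM). They were also the highest control and the lowest DMM library in the mean log2 CPM of proximal tubule markers, at 1.50 and -0.44 relative to the control mean. With 1 more library removed, the adjusted p was between 0.00134 and 0.0724, and the call was lost without control replicate 4 or 5 or DMM replicate 3 or 5. At an adjusted p under 0.05 with no fold threshold, 2 members were higher (3.17% of all genes), the other being Ndufa9 with a log2 fold change of 0.47. At an unadjusted p under 0.05 there were 8 (10.8%). The median over the members was 0.25 and over all genes 0.02, with 0.41 for core subunits, 0.23 and 0.17 for the accessory subunits of the matrix and membrane arms, and 0.17 for assembly factors. DESeq2 on the same libraries called 2 members higher (3.74% of 20027 genes), Ndufs1 and Ndufaf4, and 0 lower (4.55%). Ndufaf4 was highest in DMM replicate 4, and its edgeR log2 fold change over the 8 libraries was 0.61, and 0.40 without that library. With offsets for GC content and length, 3 were called higher (3.98% of all genes), which were Ndufs1 (0.63), Ndufaf6 (0.66) and Ndufv1 (0.59), and 13 passed an adjusted p under 0.05 (6.44%).

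Leaving DMM replicate 4 out of these 8 libraries, which kept 4 controls and 3 DMM libraries, gave the largest counts. Of the 46 members, 7 were called higher (6.71% of 16828 genes) and 0 lower (7.61%). They were Ndufs1 (0.71), Ndufaf6 (0.71), Ndufv1 (0.65), Ndufa4 (0.60) and the membrane arm subunits Ndufb9 (0.71), Ndufb11 (0.59) and Ndufb4 (0.59), in log2 fold change. Ndufb4, Ndufb9 and Ndufb11 were named after their values had been seen. At an adjusted p under 0.05 with no fold threshold, 39 members were higher (14.3% of all genes) and 0 lower (13.8%). Among them were 7 of 7 core subunits, 9 of 10 accessory subunits of the matrix arm, 18 of 19 of the membrane arm and 4 of 8 assembly factors. Those that did not pass were Ndufa12, Ndufa4l2, Ndufb2, Ndufaf1, Ndufaf2, Ndufaf3 and Ndufaf5. The median log2 fold change was 0.44 over the members and -0.01 over all genes. The 3 libraries that this comparison lacks include the control with the highest and the DMM libraries with the lowest means of the members, and 0 members were called when all 10 were kept. In mean log2 CPM, the same libraries had the highest control value of proximal tubule markers (1.50) and the lowest DMM values (-0.44 and 0.71 in DMM replicates 1 and 4). By summed CPM of these markers, however, DMM replicate 4 (4761) was above DMM replicate 2 (4492). At 0.71 it was also above every control except control replicate 3, whereas its mean of the members (-0.65) was below every control. The part of these markers in the calls was not tested.

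The 7 subunits of complex I encoded by the mitochondrial genome had larger differences than the nuclear median in every one of these comparisons. The difference between the gene groups was not tested. Their median log2 fold change was 1.26 over all 10 libraries, where edgeR called 0 (0% of all genes), DESeq2 called 1, mt-Nd4l (0.0882%), and in edgeR 7 of 7 differed more than 1.5-fold at an unadjusted p below 0.05 (1.91% of all genes were higher by that rule). The median was 0.73 without DMM replicate 4. Over the 8 libraries it was 1.67, with 7 of 7 called by edgeR (2.73%), and 1.18 when DMM replicate 4 was left out of these, again with 7 of 7 called (6.71%). With offsets for GC content and length it was 0.80 over 10 libraries, with 0 called (0%), and 1.16 over 8, with 7 of 7 called (3.98%). mt-Nd1 was at 2165, 2396, 3724, 2057 and 2135 CPM in control replicates 1 to 5 and at 2305, 3997, 4645, 6837 and 4863 CPM in DMM replicates 1 to 5. mt-Nd5, a proton-pumping subunit, was at 2391, 2454, 4467, 2069 and 2277 CPM in controls and at 2766, 4690.3, 5281, 16017 and 5854 CPM in DMM libraries. DMM replicate 4 was the highest library for both, in contrast to its low values for most nuclear members, while control replicate 3 was the highest control and DMM replicate 1 lay near the controls. Over all 10 libraries the log2 fold changes were 0.86 for mt-Nd1, 0.93 for mt-Nd2, 1.26 for mt-Nd3, 0.99 for mt-Nd4, 1.37 for mt-Nd4l, 1.34 for mt-Nd5 and 1.32 for mt-Nd6, with adjusted p between 0.378 and 0.385 (edgeR quasi-likelihood test, Benjamini-Hochberg). In FPKM their median level was 1959.7, against 31.1 for the nuclear members.

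**Figure D2:**
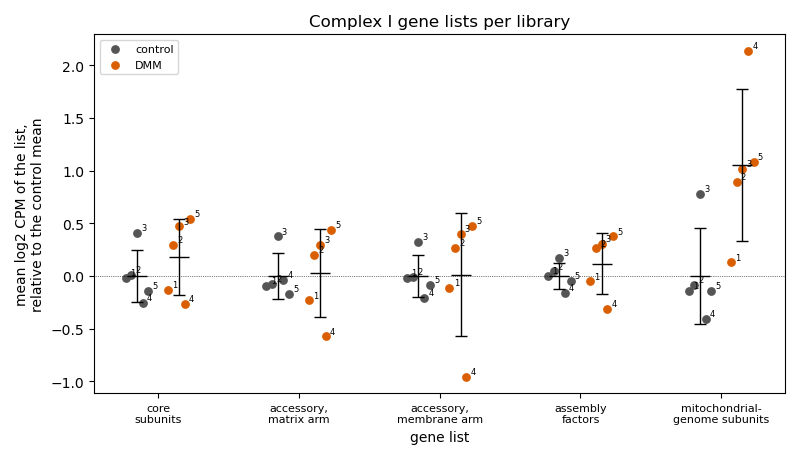
Mean log2 CPM of each complex I gene list relative to its control mean (vertical axis) for the 4 nuclear role groups and the mitochondrial-genome subunits (horizontal axis). Points are libraries labelled by replicate number, grey for control and orange for DMM, and bars are the mean ± SD (n = 5). DMM replicate 4 is at -0.96 for the membrane arm and at 2.14 for the mitochondrial-genome subunits.

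Genes of the other respiratory complexes were read in the same way, as median log2 fold changes over all 10 and over the 8 libraries. They were 0.11 and 0.28 for 8 genes of complex II, 0.20 and 0.39 for 9 of complex III, 0.11 and 0.27 for 12 of complex IV and 0.10 and 0.21 for 16 of ATP synthase, its inhibitor Atpif1 among them. The complex II list joins the subunits of the inhibited enzyme with its assembly factors Sdhaf1 to Sdhaf4. Over all 10 libraries the log2 fold changes of the subunits were 0.27 for Sdha, 0.32 for Sdhb, 0.12 for Sdhc and 0.10 for Sdhd. Without DMM replicate 4 those of the subunits were 0.35, 0.35, 0.30 and 0.31 in the same order. The 12 complex I assembly factors without the Nduf name, among them Acad9 and Timmdc1, had 0.13 and 0.23. Without DMM replicate 4 the medians were 0.30 for complex II, 0.34 for complex III, 0.35 for complex IV, 0.28 for ATP synthase and 0.17 for these assembly factors. In each of these lists edgeR without offsets called 0 genes over 10 (0% of all genes) or over 8 libraries (2.73% higher, 3.56% lower). With offsets for GC content and length over the 8, 1 gene each was called higher in complex II, complex III and ATP synthase (3.98% of all genes). In complex IV and these assembly factors 0 were. Over the 8 without DMM replicate 4, where 6.71% of all genes were called higher, genes called higher numbered 2 of 8 in complex II, 4 of 9 in complex III, 7 of 12 in complex IV, 4 of 16 in ATP synthase and 1 of 12 of these assembly factors. At an adjusted p under 0.05 with no fold threshold (14.3% of all genes), 4, 9, 12, 15 and 6 genes were higher in the same order. The medians in this comparison were 0.52, 0.56, 0.59, 0.45 and 0.29. Whether complex I differed from them was not tested.

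Of 7 regulators of nuclear respiratory genes, 0 were called over all 10 libraries and 1 over the 8 (2.73% of all genes). It was Ppargc1a, the coactivator PGC-1α, at 50.2, 36.3, 63.5, 30.6 and 41.0 CPM in control replicates 1 to 5 and at 40.9, 58.1, 73.3, 135 and 70.5 CPM in DMM replicates 1 to 5. The highest value was in DMM replicate 4, DMM replicate 1 lay among the controls, and control replicate 3 was above DMM replicate 2. The log2 fold change was 0.77 with a standard error of 0.30 over 10 libraries and 1.09 over 8, and the adjusted p was 0.409 and 0.045 (edgeR quasi-likelihood test, Benjamini-Hochberg). Without DMM replicate 4 the log2 fold change of Ppargc1a was 0.45, with an unadjusted p of 0.0755. It was called higher over the 8 libraries without DMM replicate 4 (0.77, with 6.71% of all genes called higher) and over the 8 with offsets for GC content and length (0.82, 3.98%). Over all 10 libraries the log2 fold change was 0.28 for Ppargc1b, -0.01 for Nrf1, 0.15 for Gabpa, 0.04 for Esrra, 0.05 for Tfam and 0.06 for Yy1. Of the 7 regulators, 6 were above 0 over all 10 libraries and 4 without DMM replicate 4, with medians of 0.06 and 0.05. Ppargc1a was singled out after its values had been seen.

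Promoters of the members were searched for motifs of these regulators. A RefSeq window of 300 bases around the gene start (GRCm38.p6) was at hand for 40 of the 46 members and for 16497 genes in all, and both strands were searched. The core NRF1 motif CGCANGCG was in 13 of the 40 (32.5%), against 13.0% of all. The YY1 motif AAGATGGCG was in 6 (15.0%), against 2.25%. The ETS motif CCGGAAGT was in 1 (2.5%), against 5.93%, and the ERR motif TCAAGGTCA in 0, against 0.388%. NRF1 matches were in Ndufa5, Ndufa6, Ndufa7, Ndufa8, Ndufa11, Ndufa12, Ndufaf2, Ndufaf4, Ndufaf5, Ndufb4, Ndufb10, Ndufs5 and Ndufs6, and YY1 matches in Ndufa9, Ndufaf8, Ndufc1, Ndufs4, Ndufs6 and Ndufs7. The NRF1 and YY1 motifs were cut to these letters after longer forms of both had been counted in the same windows. Counts of the longer forms are not given here, so how far the shares depend on that choice cannot be read from them. The shares of all genes were taken without regard to expression or GC content, so the members were not compared with promoters like their own. A match is a run of letters and was not tested for binding. Short stretches upstream of the deposited gene start show the NRF1 match, in capitals, in Ndufaf4 at chr4:24897946-24898003 (+ strand), Ndufa11 at chr17:56717678-56717735 (+ strand), Ndufs5 at chr4:123718251-123718308 (− strand), Ndufaf2 at chr13:108158817-108158874 (− strand) and Ndufb4 at chr16:37654526-37654583 (− strand), each written 5′ to 3′ on the strand of its gene. They are shown so that the match can be read in its surroundings.
Ndufaf4: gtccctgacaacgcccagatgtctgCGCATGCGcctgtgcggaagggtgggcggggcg
Ndufa11: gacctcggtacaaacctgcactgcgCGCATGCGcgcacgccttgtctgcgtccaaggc
Ndufs5: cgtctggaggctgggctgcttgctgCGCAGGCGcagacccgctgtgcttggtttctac
Ndufaf2: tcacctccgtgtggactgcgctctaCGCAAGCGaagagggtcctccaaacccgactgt
Ndufb4: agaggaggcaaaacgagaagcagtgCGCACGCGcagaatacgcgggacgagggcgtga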

How the data were processed

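RNA of UUO kidneys was sequenced in 5 control and 5 DMM libraries, 1 per mouse. The authors aligned reads to mm10 (HISAT2 2.0.5 is named in the submitters' processing notes) and deposited a raw count per gene and library, without normalization. The deposited FPKM values divide these by gene length and library size, and the gene length deposited in the same table is in base pairs. The authors' comparison, by DESeq2, holds group means, a deposited signal in counts divided by size factors, of which only the weights of the libraries were used. Its deposited log2 fold change and p-value columns were not used. The counting tool and strand setting are not given in the sources used here. Per-sample columns not used numbered 0. Gene IDs matched GENCODE M21 for 54495 of 54532 genes, which gave transcript length and GC content.

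The members and lists were chosen with earlier results of these data known. Counts were filtered by filterByExpr, scaled by TMM and tested with edgeR 4.0.16 (glmQLFit, glmQLFTest) in R 4.3.3, with group as the single term and Benjamini-Hochberg adjustment over all genes tested. No p was computed over the list. CPM used TMM, and list means used a prior count of 2. Reads are not independent molecules, and p-values set the difference between the groups against the spread between mice. The steps were tested on simulated counts. Alternatives were DESeq2 1.42.0, RLE factors, library size alone, removal of mitochondrial-genome counts, other filters and thresholds, protein-coding genes alone, log2(FPKM + 0.1) with limma 3.58.1, the replicate number as a block, the 8 libraries, and each library left out. Offsets for GC content and length (loess, span 0.3), and DESeq2 over the 8 libraries, were added after seeing the data. The genes given with values were the core subunits, Ndufa4, Ndufa4l2, Ndufab1, the extremes of each role group in log2 fold change and of all members in FPKM, the 5 members with the smallest p over 10 and over 8 libraries, any member called, and the mitochondrial-genome subunits. Of these, 1 member is not reported here.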

Additional observations from a re-analysis of the deposited data

Results flagged for a closer look

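In 16 of 64 pairs of a group and a result, 1 library lay far from the other 4 of its group. The measure is its gap to the nearest of them as a share of the whole range, with 0.71 as the limit, and chance would mark about 1 in 20 groups. The pairs share libraries and are not independent.

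Control replicate 3 was the far and highest control. The share was 0.763 for Ndufa9, 0.766 for Ndufab1, 0.749 for Ndufs3 and 0.761 for the mean of the accessory subunits of the matrix arm. For mt-Nd1, mt-Nd2, mt-Nd3, mt-Nd4, mt-Nd5 and mt-Nd6 it was 0.796, 0.765, 0.745, 0.826, 0.839 and 0.906, and for the mean of the mitochondrial-genome subunits 0.729. DMM replicate 4 was the far and highest DMM library for mt-Nd3 (0.798), mt-Nd4l (0.733), mt-Nd5 (0.767) and mt-Nd6 (0.754). It was the far and lowest one for the mean of Ndufa4 and Ndufa4l2 (0.72).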

How the results depend on the processing

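Over all 10 libraries, 0 members were called higher or lower under each alternative that kept these libraries, and the members' median log2 fold change lay between 0.02 (library size alone, where the median of all genes was -0.06) and 0.16 (GC content and length, 0.02), against 0.09 (0.02) with TMM. Counts over all genes, higher and lower, were 0 and 0. They were 14 and 36 with DESeq2, and 315 and 678 past 1.5-fold with an unadjusted p below 0.05. Over the 8 libraries they were 452 and 590 with edgeR, 749 and 911 with DESeq2, and 658 and 781 after GC and length offsets, with 1, 2 and 3 members called higher. The 2 settings that change only the threshold leave log2 fold changes as they are. The cause was not tested.

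With 1 library left out of either set, genes called higher numbered 0 to 1129 and lower 0 to 1281, and members called higher 0 to 7, with the largest counts without DMM replicate 4 in the 8 libraries. Out of all 10, leaving out DMM replicate 1 gave 50 and 436 genes, and leaving out each other library gave 0 and 0. The members' median ranged from 0.0036 (without DMM replicate 5) to 0.44.

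Signs turned for Ndufa12, at -0.36 over all 10 libraries, and for members nearer 0. Over the 8 libraries with edgeR, DESeq2 and GC and length offsets, Ndufa12 had log2 fold changes of 0.0063, 0.0056 and 0.16, and Ndufc2 0.038, 0.040 and 0.00043. Ndufaf5 had 0.031 with edgeR and 0.033 with DESeq2, and Ndufs7 -0.042 with limma on log2(FPKM + 0.1). With 1 library left out, the ranges were -0.54 to 0.66 for Ndufa12, -0.057 to 0.47 for Ndufab1, -0.17 to 0.17 for Ndufaf5, -0.17 to 0.28 for Ndufc2 and -0.082 to 0.49 for Ndufs7.

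With the replicate number as a block, 0 genes were called higher and 0 lower, the members' median was 0.04, and Ndufs7 had -0.037. The numbers are no sign of shared mice. Deviations of same-numbered libraries correlated at -0.06, 0.08, 0.34, 0.12 and -0.22 for numbers 1 to 5, and number 2 was the only one for which a library correlated best with its own number.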
